A study of Mus musculus with 4 samples.

Results

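The Notch receptors Notch1, Notch2, Notch3 and Notch4, the ligands Dll1, Dll4, Jag1 and Jag2, and the target genes Hey1 and Heyl were followed through mouse hindlimb development. These 10 genes were chosen by name, of 33456 gene entries in the count tables, and were read in endothelium, pericytes, muscle, cartilage and epidermis. Single-cell RNA was counted in 4 droplet libraries (10x Chromium, 3' kit) of hindlimb cells from C57BL/6 embryos at embryonic day 11.5 (E11.5), at E13.5 and E15.5, and at E18.5 shortly before birth. Each library held the pooled embryos of 1 litter, whose cells were digested, frozen, thawed and cleared of dead cells before capture. The limb passes over this time through bud outgrowth, cartilage condensation, joint cavitation and joint shaping. The labels give no mutation, transgene or treatment for any stage.

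After cells with fewer than 200 genes or over 10% mitochondrial counts were left out, 2640, 2816, 2598 and 1904 cells remained in stage order. Their median depths were 8943, 10276, 9956.5 and 6959.5 UMIs, the molecular barcodes by which captured transcripts are counted without their PCR copies. The libraries held 15080964 to 35485783 UMIs in all, of which 2538 to 5534 belonged to the 10 genes. Of all barcodes, 69 occurred in more than 1 library. Cells were assigned to a gate by 8 marker genes each, none of them a Notch pathway gene. A cell needed at least 3 markers of the gate, with at least 1 UMI each, or at least 3 UMIs each for cartilage. Where another gate also reached 3 markers, a lead of 2 markers over it was needed. Endothelium held 436, 108, 107 and 49 cells over the 4 stages, cartilage 172, 1711, 1608 and 289, and epidermis 366, 234, 165 and 239. Muscle held 13, 53, 113 and 238 cells, and pericytes 0, 5, 12 and 351, so that pericytes could be read in numbers at E18.5 alone. The pericyte markers were Rgs5, Kcnj8, Abcc9, Higd1b, Cox4i2, Myh11, Acta2 and Art3. Myh11 and Acta2 are also genes of smooth muscle, which was not separated. Pericytes here are thus the cells of this gate and may include smooth muscle cells. The remaining cells were ungated (1646, 686, 579 and 729) or met several gates without that lead (7, 19, 14 and 9). High levels of a gate's own markers follow from the gating, so their sums are given as a description. The endothelial list summed to between 3914 and 5119 UMIs per 1000000 UMIs of the same cells (CPM) in endothelium and to at most 267 CPM in any other gate. The cartilage list summed to 2742 CPM in gated cartilage at E11.5, against 21990 to 46760 CPM at the later stages. Gated cartilage at E11.5 is thus a class of low marker level.

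Notch receptors are single-pass membrane proteins that bind Delta and Jagged ligands on a neighbouring cell. Ligand binding exposes the receptor to ADAM proteases and then to gamma-secretase, and the freed intracellular domain joins RBPJ in the nucleus to activate genes of the Hes and Hey families. In vessels the pathway is known for arterial identity, for sprouting controlled by Dll4, and for mural cells that depend on Notch3. In muscle it keeps progenitors from differentiating, and in the epidermis it is active as cells leave the basal layer.

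All 10 genes are protein-coding in GENCODE vM21 on GRCm38 (mm10). Of the receptors, Notch1 lies at chr2:26457903-26516663, Notch2 at chr3:98013527-98150361, Notch3 at chr17:32120820-32166852 and Notch4 at chr17:34564268-34588503. Of the ligands, Dll1 lies at chr17:15367354-15376872, Dll4 at chr2:119325784-119335962, Jag1 at chr2:137081456-137116644 and Jag2 at chr12:112907819-112929776. Hey1 lies at chr3:8663359-8667256 and Heyl at chr4:123233556-123249875. The microRNA genes Mir6996 and Mir6941 lie on the same strand within Notch1 and Jag2. The promoters of the 2 members with the strongest endothelial signal and of the leading pericyte receptor are shown because these genes set the vascular results. RefSeq (GRCm38.p6) gave promoters for 8 of the 10 members, Hey1 and Heyl not among them. The sequences run 5′ to 3′ over the 250 bases before the transcription start, with the ETS core AGGAAG (or CTTCCT on the other strand) in capitals, ETS factors being general regulators of endothelial genes.

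Dll4 promoter, chr2:119325534-119325783, plus strand: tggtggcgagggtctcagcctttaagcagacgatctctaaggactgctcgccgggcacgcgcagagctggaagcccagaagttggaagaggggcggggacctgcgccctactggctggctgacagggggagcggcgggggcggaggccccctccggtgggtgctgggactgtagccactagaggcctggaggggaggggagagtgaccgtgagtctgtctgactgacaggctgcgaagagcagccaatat
Notch4 promoter, chr17:34564045-34564294, plus strand: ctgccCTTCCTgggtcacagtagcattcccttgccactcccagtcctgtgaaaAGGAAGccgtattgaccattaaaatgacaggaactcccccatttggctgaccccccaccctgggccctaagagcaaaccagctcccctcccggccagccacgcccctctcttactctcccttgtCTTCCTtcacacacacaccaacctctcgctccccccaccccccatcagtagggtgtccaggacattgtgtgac
Notch3 promoter, chr17:32166891-32167140, minus strand: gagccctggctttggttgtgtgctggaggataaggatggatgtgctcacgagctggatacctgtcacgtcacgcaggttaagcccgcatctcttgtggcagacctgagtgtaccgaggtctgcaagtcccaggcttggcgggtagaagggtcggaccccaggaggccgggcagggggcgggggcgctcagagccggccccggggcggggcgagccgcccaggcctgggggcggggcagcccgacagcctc

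Notch4 had 3 ETS cores, at 245, 197 and 73 bases before the start, and neither Dll4 nor Notch3 had one in this window. An ETS core occurred in 29.5% of 32851 mouse promoter windows of this length. The RBPJ core TGGGAA (or TTCCCA), the binding sequence of the Notch nuclear complex, occurred in 21.6% of all windows and in 0 of the 8 members. Such matches describe letters in a short window and not binding.

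Where each gene's transcripts lay changed with the make-up of the library. At E11.5 endothelium held 95.8% of all Dll4 UMIs and 61.6% of Notch4 UMIs, and epidermis held 92.8% of Heyl UMIs. Ungated cells, which were 1646 of 2640 cells, held 64.7% of Hey1, 65.8% of Jag1, 71.3% of Notch2 and 73.5% of Notch3 UMIs at that stage. At E18.5 pericytes held 75.9% of Notch3, 73.8% of Heyl, 48.2% of Jag1 and 40.9% of Hey1 UMIs, although they were 351 of 1904 cells. Epidermis held 83.3% of Jag2 UMIs at E18.5 and between 54.3% and 57.8% at the earlier stages.

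**Figure D1:**
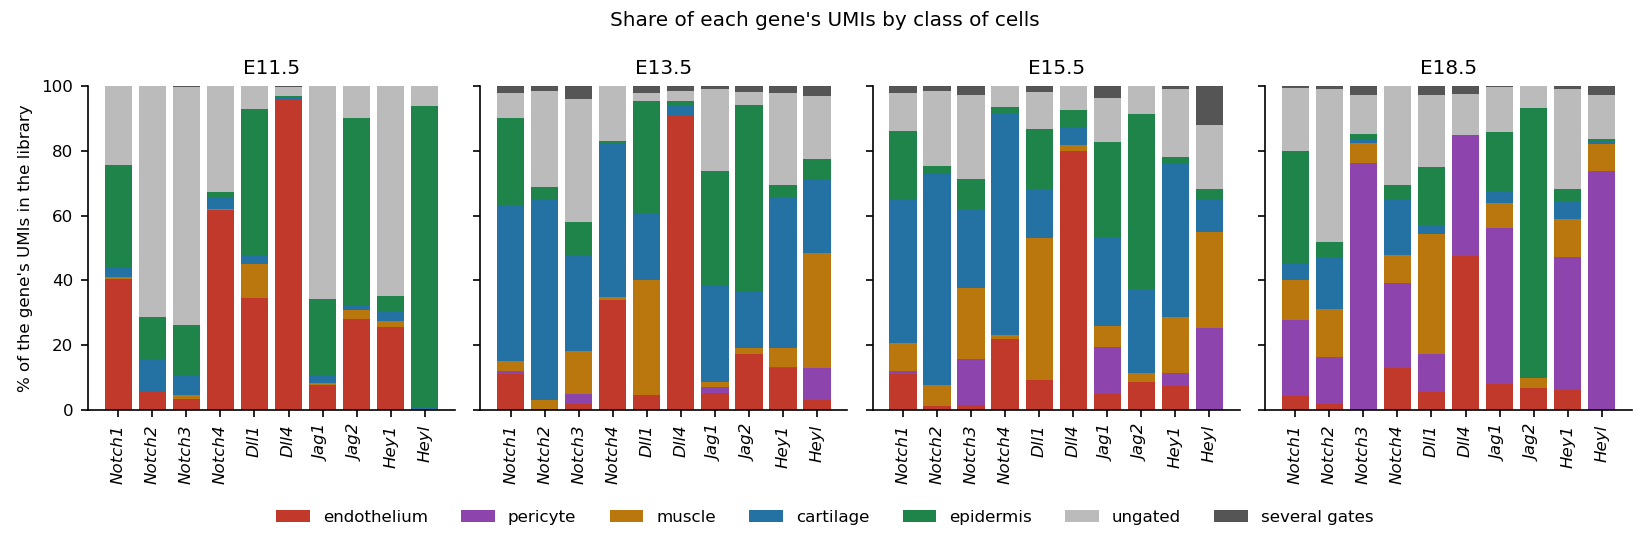
Share of each gene's UMIs (vertical axis, % of the gene's UMIs in that library) by class of cells at the 4 stages. Endothelium fills the Dll4 bar at E11.5 (95.8%), epidermis the Heyl bar at E11.5 (92.8%), and pericytes the Notch3 bar at E18.5 (75.9%).

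Each stage rests on a single library, so no test between stages was made, and a stage difference describes a pair of litters. Values in parentheses after a level, share or fold are 95% intervals for counting error alone. In whole libraries the CPM of the median gene at E13.5 was lower than at E11.5 by 0.55 on the log2 scale, and at E18.5 lower than at E11.5 by 0.62, so folds between stages are given relative to the median gene. A gene counted as higher or lower by size at a 2-fold difference in CPM, an interval on 1 side of equality and 20 UMIs in the pair. Of the 10 members, 1 was higher and 7 were lower at E13.5 than at E11.5, where 12.8% of all genes were higher and 26.1% lower. Relative to the median gene 1 was higher and 6 were lower, where 19.5% of genes were higher and 9.54% lower. At E15.5 against E13.5 2 members were higher and 0 lower (3.85% of genes higher and 0.97% lower). At E18.5 against E15.5 5 members were higher and 0 lower, where 11.7% of genes were higher and 8.26% lower. Over the whole span, E18.5 against E11.5, 4 members were higher and 3 lower (16.5% of genes higher and 35% lower). Relative to the median gene 5 were higher and 3 lower (24.3% and 14.1%).

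Notch2 was the member higher at E13.5, with 26.1 CPM at E13.5 against 7.74 CPM at E11.5, a 4.93-fold difference relative to the median gene (4.24 to 5.75). Dll4 fell most among receptors and ligands over that interval, to 1.88 CPM at E13.5 against 20.5 CPM at E11.5, 7.47-fold lower (5.78 to 9.80). Hey1 had 9.14 CPM at E13.5 against 73.9 CPM at E11.5, 5.54-fold lower (4.93 to 6.26). At E18.5 Notch3 had 67.0 CPM against 7.03 CPM at E15.5, 10.5-fold higher (9.03 to 12.2), and Heyl had 24.6 CPM against 3.06 CPM, 8.85-fold higher (7.01 to 11.3). Gated endothelial cells numbered 108 at E13.5 against 436 at E11.5, and pericytes 351 at E18.5 against 12 at E15.5. In whole libraries, more cells of a type and more RNA per cell cannot be told apart, so the levels within gates follow.

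Gates were compared with edgeR on UMIs summed per library and gate, each gate against the mean of the other 4, with the library as a block. There were 16 sums of at least 20 cells: 4 each for endothelium, cartilage and epidermis, 3 for muscle and 1 for pericytes. The lone pericyte sum was assumed to vary like the other gates. It came from E18.5, so runs without the E18.5 library had no pericytes. Such runs compared each gate with the mean of fewer gates, which is a different contrast. Genes counted as called at a Benjamini-Hochberg adjusted p under 0.05 over 12731 genes and a 2-fold difference. In endothelium 4 members were higher and 3 lower, where 9.65% of all genes were called higher and 6.27% lower. In pericytes 3 members were higher and 0 lower (background 5.19% higher and 0.691% lower), and in muscle 4 were higher and 0 lower (5.65% and 10.6%). In cartilage 0 members were higher and 7 lower (12.2% and 6.24%), and in epidermis 4 were higher and 2 lower (9.44% and 7.23%). The median log2 fold change of the 10 members was 0.65 in endothelium, 0.96 in pericytes, 0.17 in muscle, -2.01 in cartilage and -0.11 in epidermis. Over all genes tested it lay between -0.12 in muscle and 0.05 in epidermis.

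**Figure D2:**
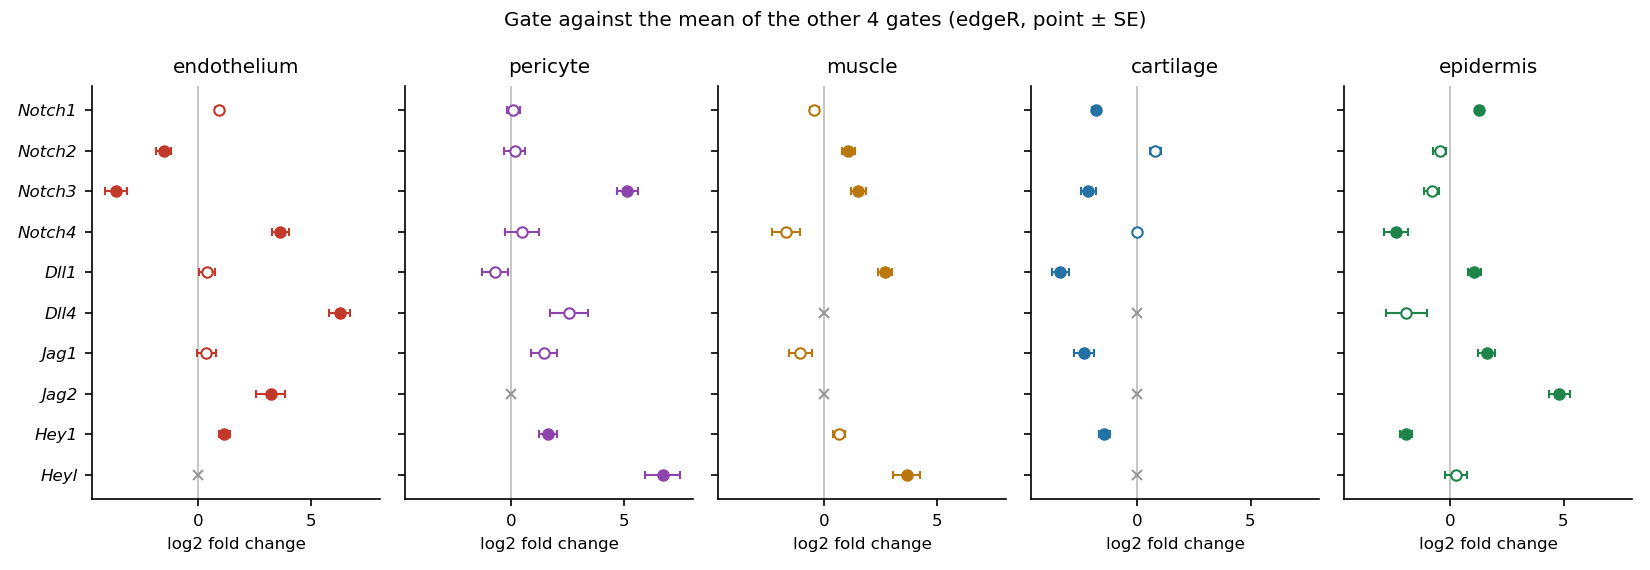
Log2 fold change (horizontal axis) of each member in a gate against the mean of the other 4 gates, edgeR estimate with its standard error. Filled points were called, open points were not, and grey crosses mark estimates left out because their standard error is above 1 with few or no UMIs on 1 side. Crosses are drawn on the line of no difference whatever the estimate. Heyl in endothelium and cartilage and Dll4 in cartilage have crosses but were called lower. Dll4 stands far to the right in endothelium (6.24), Notch3 and Heyl in pericytes (5.12 and 6.69) and Jag2 in epidermis (4.82).

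Among the receptors, Notch1 was found in every gate and was highest in epidermis and endothelium. Epidermis had 96.9, 55.4, 71.5 and 147.5 CPM of Notch1 from E11.5 to E18.5, and endothelium 84.9, 54.1, 64.2 and 92.0 CPM. Cartilage had 25.2, 11.1, 14.1 and 16.4 CPM, below both of these gates at every stage without overlap. Notch1 was higher in epidermis than in the other gates by 1.28 ± 0.16 on the log2 scale (SE; adjusted p = 4.63e-05) and lower in cartilage (log2 fold change -1.84 ± 0.18, adjusted p = 7.66e-06). In endothelium its log2 fold change was 0.92 ± 0.17 (adjusted p = 0.00156), under the 2-fold limit, and it was called there without the E18.5 library (1.10, adjusted p = 0.000245). Only at E18.5 did counting intervals set epidermis apart from endothelium.

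Notch2, a receptor of mesenchymal and skeletal cells among others, was lowest in endothelium at E11.5 and E13.5. Endothelium had 2.16, 2.58, 10.1 and 22.3 CPM of Notch2. Muscle had 28.2, 29.4 and 31.2 CPM at E13.5, E15.5 and E18.5, and cartilage 14.0, 22.9, 29.6 and 30.7 CPM over the 4 stages. At E18.5 the intervals of gates next to each other in level overlapped throughout. The ungated cells had the most Notch2 from E13.5 on, with 53.2, 44.1 and 42.0 CPM. The log2 fold change was -1.54 ± 0.34 in endothelium (adjusted p = 0.00529) and 1.05 ± 0.29 in muscle (adjusted p = 0.0165). The endothelial call was lost without the block (adjusted p = 0.0731) and without the E13.5 library (0.0619). The muscle call was lost in 5 of 13 alternatives, among them leaving out E13.5 (adjusted p = 0.0821) or E15.5 (0.12), requiring 4 markers (0.0636), scaling by total UMIs (log2 fold change 0.94) and dropping the block (0.129). Cartilage gained a Notch2 call without the E18.5 library (1.00, adjusted p = 0.0104).

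Notch3, the receptor known from mural cells, reached 255.3 CPM in the 351 pericytes at E18.5, and the small pericyte sets at E13.5 and E15.5 had 131.6 and 253.2 CPM on 7 and 30 UMIs. Muscle had 32.7, 23.3 and 28.9 CPM from E13.5 to E18.5, the next highest gate at each of these stages. Endothelium stayed between 2.75 and 5.57 CPM. At E18.5 a Notch3 UMI was found in 80.6% of pericytes (76.1 to 84.6), at a median depth of 7765 UMIs, and in 4.08% of endothelial cells at a median depth of 6113. Notch3 was called higher in pericytes (log2 fold change 5.12 ± 0.47, adjusted p = 2.78e-05) and muscle (1.51 ± 0.34, adjusted p = 0.00599), and lower in endothelium (-3.63 ± 0.48, adjusted p = 9.92e-05) and cartilage (-2.17 ± 0.33, adjusted p = 0.00028). The pericyte value compares 1 sum of 1 library with the other gates, and its error is borrowed from their spread. The muscle call was lost without the block (adjusted p = 0.193). The pericyte list summed to 1094, 639.5 and 826.7 CPM in gated muscle at E13.5, E15.5 and E18.5, with 5, 6 and 8 of 8 markers found. Rgs5, Higd1b and Art3 were at 0 at E13.5, and Higd1b and Myh11 at E15.5. The 13 muscle cells of E11.5 summed to 773.7 CPM with Rgs5, Kcnj8, Abcc9, Myh11 and Art3 at 0. The same list summed to 7727 CPM in pericytes at E18.5. The part of pericyte transcripts in the muscle Notch3 level was not tested. The cartilage call was lost without the E18.5 library (log2 fold change -1.01, adjusted p = 0.0889). That run also lacked pericytes, the gate with the most Notch3, so its contrast was not the same.

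Cartilage and epidermis had their highest Notch3 at E11.5. Cartilage had 27.3, 2.67, 2.55 and 5.63 CPM over the stages, and epidermis 28.0, 7.97, 10.8 and 7.73 CPM. The cartilage level at E18.5 rests on 13 UMIs. Its log2 ratio over E15.5 turned to -0.41 when cells with a second gate were left out. At E11.5 the ungated cells had 31.1 CPM, close to the level in gated cartilage, whose cartilage markers were then low. Cartilage Notch3 at E13.5 was 6.53-fold lower than at E11.5 relative to the median gene (4.28 to 9.85).

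Notch4, a receptor known as largely endothelial, had 30.5, 32.6, 18.3 and 8.36 CPM in endothelium from E11.5 to E18.5, the last on 3 UMIs. It was higher in endothelium than in the other gates (log2 fold change 3.63 ± 0.38, adjusted p = 1.07e-05) and lower in epidermis (-2.40 ± 0.52, adjusted p = 0.00388). At E18.5 endothelial Notch4 was 2.53-fold lower than at E11.5 relative to the median gene, with an interval that includes no difference (0.85-fold to 12.4-fold lower). The lymphatic markers Prox1, Lyve1, Mmrn1 and Reln summed to 97, 67, 453 and 1460 CPM in gated endothelium over the 4 stages, with all 4 found except Reln at E11.5. Cells with 2 or more of these 4 markers were 18 of 436, 4 of 108, 33 of 107 and 23 of 49. At E15.5 and E18.5 the 20 and 3 Notch4 UMIs lay in the other endothelial cells, which had 28.3 and 16.7 CPM of Notch4, while the lymphatic-marked cells had 0 UMIs at either stage (intervals up to 9.59 and 20.6 CPM). This split was chosen after the values were seen, and the part of the lymphatic cells in the stage difference was not tested.

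Notch4 was also counted in cartilage, at 7.00, 2.14, 3.16 and 1.73 CPM. Because cartilage was so numerous, these 53 and 62 UMIs made up 47.3% and 68.1% of all Notch4 UMIs at E13.5 and E15.5. Dll4 had 2 and 3 UMIs in the same cells, against 60 and 44 UMIs in endothelium, where Notch4 had 38 and 20. A Notch4 UMI was found in 3.04% and 3.79% of cartilage cells at these stages, at median depths of 12906 and 11151.5 UMIs, and in 28.7% and 13.1% of endothelial cells, at 9452.5 and 8949 UMIs.

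**Figure D3:**
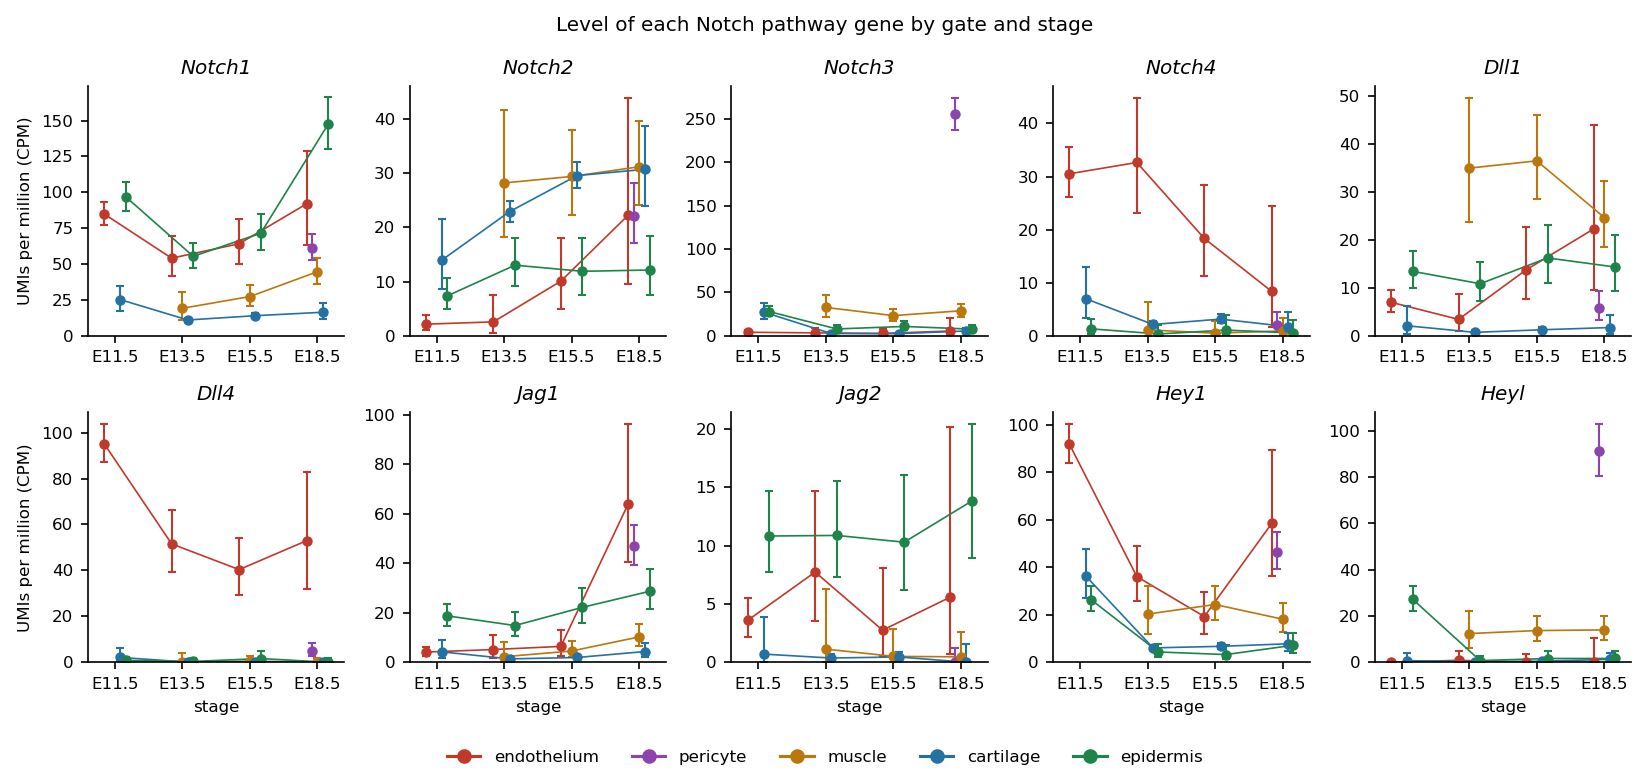
Level of each member (vertical axis, CPM) by stage in the 5 gates, for gates of at least 20 cells. Points are 1 library each, and bars are exact 95% Poisson intervals. Pericytes appear at E18.5 alone, where Notch3 (255.3 CPM) and Heyl (91.1 CPM) stand above every other gate, and the Dll4 line of endothelium lies above all others at each stage.

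Of the ligands, Dll4, which is known to restrain sprouting, was found mainly in endothelium. Endothelium held 95.8%, 90.9%, 80.0% and 47.5% of its UMIs over the stages, and pericytes 37.5% at E18.5. Endothelium had 95.2, 51.6, 40.4 and 52.9 CPM of Dll4 over the stages, and cartilage, epidermis and muscle held 0 to 3 UMIs each per library. The log2 fold change in endothelium was 6.24 ± 0.45 (adjusted p = 3.56e-07). It rests on near-empty sums in the other gates, so its size depends on how low counts are treated. Dll4 reached the filter through the 4 endothelial sums and the pericyte sum, and without the filter its log2 fold change was 6.19 (adjusted p = 5.46e-14). A Dll4 UMI was found in 52.3% of endothelial cells at E11.5 (47.5 to 57.1), at a median depth of 11260.5 UMIs, and in 0.82% of epidermal cells at a median depth of 9243.5. Pericytes at E18.5 held 15 Dll4 UMIs in 13 of 351 cells, or 5.10 CPM (2.85 to 8.41). The endothelial markers summed to 267 CPM in the same pericytes, with 7 of 8 found and Tie1 at 0. They summed to 25.1, 45.2 and 37.0 CPM in cartilage, muscle and epidermis of that library and to 4467 CPM in endothelium. Their part in the pericyte Dll4 level was not tested, and Dll4 was not called in pericytes (log2 fold change 2.55 ± 0.86, adjusted p = 0.11), though it passed without a filter on low counts (0.0366) and without the E11.5 library (0.0493). In cartilage Dll4 was called lower (adjusted p = 0.0154). That call was lost without E13.5 (0.0641), E15.5 (1.00) or E18.5 (0.0539), and without the cells of highest depth.

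Dll1, the ligand by which differentiating muscle cells are known to signal to progenitors, was highest in muscle. Muscle had 34.99, 36.5 and 24.7 CPM at E13.5, E15.5 and E18.5, and epidermis 13.5, 10.9, 16.3 and 14.4 CPM over the 4 stages. Cartilage remained between 0.73 and 2.10 CPM. Endothelium reached 22.3 CPM at E18.5 on 8 UMIs, which did not differ from muscle beyond counting error. The log2 fold change was 2.67 ± 0.30 in muscle (adjusted p = 3.61e-05), 1.06 ± 0.29 in epidermis (adjusted p = 0.016) and -3.40 ± 0.37 in cartilage (adjusted p = 1.7e-05). The epidermal value sits at the 2-fold limit, and its call was lost in 5 of 13 alternatives, including those without the block (0.87, adjusted p = 0.132), without E15.5 (1.02, adjusted p = 0.126) and without E18.5 (0.96, adjusted p = 0.031).

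Jag1, the Jagged ligand best known from vessels, sensory organs and skin, had 18.7, 14.9, 22.2 and 28.7 CPM in epidermis, and 4.13, 5.16, 6.42 and 64.1 CPM in endothelium. Pericytes at E18.5 had 46.9 CPM. The endothelial level at E18.5 was 10.5-fold higher than at E15.5 relative to the median gene (4.36 to 28.9), on 23 and 7 UMIs. Of the 23 UMIs at E18.5, 22 lay in the 26 endothelial cells with under 2 lymphatic markers, which had 122.1 CPM (76.5 to 184.9), against 5.60 CPM in the 23 lymphatic-marked cells. Across stages the endothelial Jag1 log2 fold change was 0.36 ± 0.42 and was not called (adjusted p = 0.615). Jag1 was called higher in epidermis (1.61 ± 0.37, adjusted p = 0.00587) and lower in cartilage (-2.36 ± 0.43, adjusted p = 0.00116). The epidermal call was lost without the block (0.352), without E13.5 (0.0643) and without E15.5 (0.0782).

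Jag2, a ligand known from stratified epithelia, was low throughout and highest in epidermis. Epidermis had 10.8, 10.9, 10.3 and 13.8 CPM over the stages, endothelium 3.59, 7.73, 2.75 and 5.57 CPM, and cartilage at most 0.70 CPM. Relative to the median gene, epidermal Jag2 at E18.5 was 2.31-fold higher than at E11.5 (1.34 to 3.88), with 13.8 CPM against 10.8 CPM. Pericytes held 0 Jag2 UMIs at E18.5. The log2 fold change was 4.82 ± 0.47 in epidermis (adjusted p = 5.42e-06) and 3.20 ± 0.63 in endothelium (adjusted p = 0.00244), both called in all 13 alternatives. The fold depends on sums of 0 or 1 UMI in muscle and pericytes. Jag2 reached the filter through 4 epidermal sums and 1 endothelial sum, and without the filter its epidermal log2 fold change was 4.73 (adjusted p = 1.17e-08).

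Among the targets, Hey1 encodes a transcriptional repressor known from arteries and from limb mesenchyme. Endothelium had 91.9, 36.1, 19.3 and 58.5 CPM, muscle 20.3, 24.3 and 18.2 CPM from E13.5, and pericytes 46.6 CPM at E18.5. Epidermis had 26.4, 4.35, 3.25 and 7.18 CPM, and cartilage 36.4, 6.06, 6.72 and 7.79 CPM. Hey1 was called higher in endothelium (log2 fold change 1.15 ± 0.25, adjusted p = 0.00431) and pericytes (1.62 ± 0.39, adjusted p = 0.0249), and lower in epidermis (-1.95 ± 0.28, adjusted p = 0.000153) and cartilage (-1.46 ± 0.25, adjusted p = 0.00064). The endothelial call was lost without the block (0.0633) and without E13.5 (0.056), the pericyte call without the block (0.206), E13.5 (0.0714) or E15.5 (0.0605), and the cartilage call without the block (0.063). Muscle gained a call without E18.5 (1.44, adjusted p = 0.0104).

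The largest pool of Hey1 at E11.5 lay outside the gates. The 1646 ungated cells had 81.4 CPM (77.0 to 86.0) and held 1292 of the library's 1996 Hey1 UMIs. When they were split after the values were seen by a UMI of Hoxd13, a gene of the distal limb bud, the 491 Hoxd13-positive cells had 143.2 CPM (133.7 to 153.3) and the other 1155 cells 45.5 CPM (41.5 to 49.9). Jag1 was also higher in the Hoxd13-positive cells, with 22.6 against 6.38 CPM, while Notch3 had 31.7 against 30.7 CPM. The Hoxd13-positive cells were deeper, with a median of 11192 against 7753 UMIs per cell, and Lhx2, another distal gene, had 252.5 against 103.1 CPM in them. Heyl had 0 UMIs in the Hoxd13-positive cells, an interval up to 0.63 CPM.

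Heyl, a related repressor known as a Notch3 target in mural cells, was, like Notch3, highest in pericytes at E18.5. It had 91.1 CPM (80.5 to 102.7) in these pericytes, on 268 UMIs, and 194.1 CPM on 23 UMIs in the 12 pericytes of E15.5. Muscle had 12.4, 13.7 and 14.0 CPM from E13.5 to E18.5. The part of the pericyte markers found in gated muscle, given above for Notch3, was not tested for Heyl either. Endothelium held a single Heyl UMI over the 4 libraries. Heyl was called higher in pericytes (log2 fold change 6.69 ± 0.76, adjusted p = 0.000132) and muscle (3.63 ± 0.58, adjusted p = 0.000643), and lower in endothelium (adjusted p = 0.000261), for which no fold is given against so few UMIs. As for Notch3, the pericyte value has no replicate of its own. Heyl in cartilage, at 0.28 to 1.298 CPM, passed at an adjusted p of 0.0498, and that call was lost in 7 of 13 alternatives (adjusted p up to 0.994), among them leaving out E13.5, E15.5 (0.126) or E18.5 (0.325). At E18.5 a Heyl UMI was found in 39.9% of pericytes and 0 of 49 endothelial cells.

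Epidermis held Heyl at E11.5 alone in any amount, with 27.2 CPM there and 0.72, 1.63 and 1.66 CPM afterwards. The E13.5 level was 25.0-fold lower than that of E11.5 relative to the median gene (6.74 to 209.0). Krt8, a keratin of simple epithelia, divided the E11.5 epidermis when a limit of 10 UMIs was set after the values were seen. The 84 Krt8-high cells had 70.5 CPM of Heyl (55.2 to 88.6), and the other 282 cells 10.9 CPM (7.36 to 15.6). Notch1 had 224.9 CPM (196.9 to 255.7) in the Krt8-high cells and 48.7 CPM (40.8 to 57.7) in the others, and Notch3 had 68.5 and 12.7 CPM. Jag1 had 35.7 CPM in the Krt8-high cells and 12.4 CPM in the others, and Nrarp, a Notch target that feeds back on the pathway, had 851.3 and 143.6 CPM. Jag2 ran the other way, with 0 UMIs in the Krt8-high cells (interval up to 3.56 CPM) and 14.9 CPM in the others.

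The Krt8-high cells had little of the basal factor Trp63, 7.72 CPM against 98.9 CPM in the other cells, and more Krt17, 1492 against 41.1 CPM. Their median depth was 11056 UMIs, against 8643. One of these cells, which met the epidermal gate, held all 76 Myog UMIs of the 84. Without it the 83 remaining cells had 72.1 CPM of Heyl and 231.3 CPM of Notch1. The pericyte list summed to 810.7 CPM in the 84 cells and to 60.3 CPM in the other 282, with 4 of its 8 markers found and Kcnj8, Abcc9, Higd1b and Myh11 at 0 in both. The part of these in the Heyl level was not tested. The 29 epidermal cells with Fgf8, a marker of the apical ectodermal ridge, had 16.2 CPM of Heyl (4.41 to 41.4), below the 28.0 CPM of the other 337 cells but with overlapping intervals.

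The later epidermis was split into suprabasal and basal cells by layer markers such as Krt1 and Krt10 for the suprabasal layers and Krt15 and Col17a1 for the basal layer. Suprabasal cells were 21, 34 and 93 at E13.5, E15.5 and E18.5, and basal cells 212, 131 and 144. Notch1 had 172.7, 123.6 and 146.4 CPM in suprabasal cells, against 40.5, 56.5 and 148.5 CPM in basal cells. Notch3 had 31.98, 43.6 and 9.93 CPM in suprabasal cells, against 4.91, 1.40 and 5.05 CPM in basal cells. Both receptors thus lay higher in suprabasal cells at E13.5 and E15.5, and only for these stages did their intervals stay apart. Jag1 had 28.8, 43.6 and 22.3 CPM in suprabasal cells, against 13.1, 16.0 and 33.3 CPM in basal cells. Jag2 had 3.20, 4.85 and 12.4 CPM in suprabasal cells, against 11.9, 11.9 and 15.2 CPM in basal cells. The intervals of the layers were apart for Jag1 at E15.5 alone and overlapped for Jag2 at each stage. No test between layers was made.

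**Figure D4:**
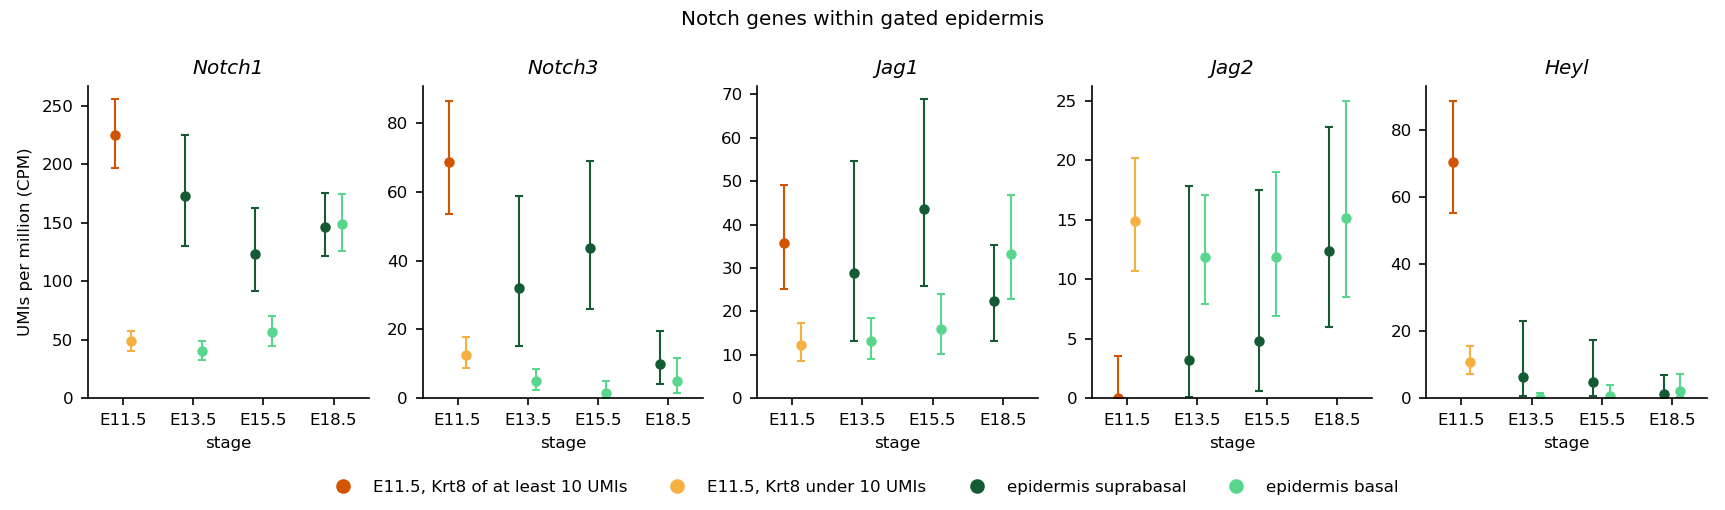
Level of 5 members (vertical axis, CPM with exact 95% Poisson intervals) within gated epidermis: cells with at least 10 and with under 10 Krt8 UMIs at E11.5, and suprabasal and basal cells at later stages. Notch1 lies higher in Krt8-high than in other cells at E11.5 (224.9 and 48.7 CPM) and in suprabasal than in basal cells at E13.5 (172.7 and 40.5 CPM), while the 2 layers meet at E18.5.

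Within endothelium, artery-type and vein-type cells were split by 6 markers each, such as Gja4 and Sox17 for arteries and Nr2f2 and Ephb4 for veins. The lymphatic-marked cells described above for Notch4 were not removed before this split. Either subset may hold them, and their part in the differences below was not tested. Only the E11.5 library held 20 cells of both, so sums of at least 10 cells were used in a comparison added after the data were seen; artery-type sums had 43, 14, 11 and 19 cells and vein-type sums 290, 76, 60 and 13. Hey1 and Notch4 were higher in artery-type cells, 2 of the 4 members that could be tested, where 1.14% of 6166 genes were called higher and 0.714% lower. Hey1 had 405.1, 220.9, 40.4 and 99.2 CPM in artery-type cells, against 57.97, 14.0, 11.4 and 22.9 CPM in vein-type cells, a log2 fold change of 2.87 ± 0.26 (adjusted p = 3.15e-07). Artery-type cells were higher in all 4 libraries, but only 3 artery-type and 2 vein-type sums reached 10 Hey1 UMIs. Notch4 had 82.0, 89.98, 72.8 and 18.03 CPM in artery-type cells, against 29.2, 23.4, 9.73 and 7.65 CPM in vein-type cells (log2 fold change 1.75 ± 0.33, adjusted p = 0.00342).

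Dll4 had 188.1, 155.4, 16.2 and 81.1 CPM in artery-type cells, against 91.9, 39.8, 48.6 and 30.6 CPM in vein-type cells, and was the member whose direction turned in 1 library, E15.5. The artery-type sum of that library held 11 cells and 123634 UMIs in all, so its Dll4 level rests on few UMIs. Of the 4 libraries, 2 reached 10 Dll4 UMIs in artery-type cells and 3 in vein-type cells. For Notch4 2 libraries did so in each subset. The Dll4 log2 fold change was 0.98 ± 0.30 (adjusted p = 0.0739), and 1.24 without E15.5 (adjusted p = 0.0229). Notch1 was higher in artery-type cells in 4 of 4 libraries, but by 0.91 ± 0.23 on the log2 scale (adjusted p = 0.0264), under the 2-fold limit. Without the library block 0 members were called, with adjusted p of 0.512 for Hey1 and 0.779 for Notch4. Notch4 dropped below the filter on low counts without E11.5 or E13.5, and Hey1 was called whichever library was left out. Heyl had 0 UMIs in both subsets at every stage.

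Muscle was split into differentiating cells, which held Myog or Mymk without Pax3 or Pax7, and progenitors, which held Pax3, Pax7 or Myf5 without Myog or Mymk. At E15.5 and E18.5, the 2 libraries with 20 cells of both, Notch2 and Notch3 were lower in differentiating cells, 2 of the 3 members that could be tested (background 3.69% of 5036 genes higher and 5.66% lower). Notch3 had 8.50 and 7.85 CPM in differentiating cells, against 61.0 and 79.2 CPM in progenitors, a log2 fold change of -2.88 ± 0.37 (adjusted p = 8.84e-13). Notch2 had 18.9 and 21.2 CPM in differentiating cells, against 56.7 and 54.0 CPM in progenitors (-1.24 ± 0.33, adjusted p = 0.00198, and 0.147 without the block). So few sums leave the test to rest largely on the spread shared across genes.

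With sums of at least 10 cells, added after the data were seen, E13.5 joined the comparison and 5 members could be tested. Notch2, Notch3 and Hey1 were lower in differentiating cells and Dll1 was higher (background 5.64% of 5483 genes higher and 5.09% lower). Hey1 passed the filter through the 3 progenitor sums and Dll1 through the 3 differentiating sums alone, so that nothing is read from the number called. Without the filter the log2 fold change was -3.28 for Hey1 (adjusted p = 1.06e-14) and 2.31 for Dll1 (adjusted p = 8.87e-07). Hey1 had 7.74, 4.72 and 3.93 CPM in differentiating cells, against 56.4, 67.6 and 55.8 CPM in progenitors (log2 fold change -3.39 ± 0.38, adjusted p = 2.37e-07). Dll1 had 48.4, 49.1 and 28.3 CPM in differentiating cells, against 0, 10.9 and 12.6 CPM in progenitors (2.20 ± 0.43, adjusted p = 0.000568). Each of the 4 genes kept its direction in the 3 libraries. Without E15.5 the Notch2 call was lost (-1.16, adjusted p = 0.087), and Hey1 and Dll1 passed the filter on low counts in the set of all 3 libraries alone. Heyl had 9.68, 5.67 and 6.28 CPM in differentiating cells, against 21.7, 30.5 and 37.8 CPM in progenitors, and entered the test only without that filter (-1.93, adjusted p = 0.000231).

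**Figure D5:**
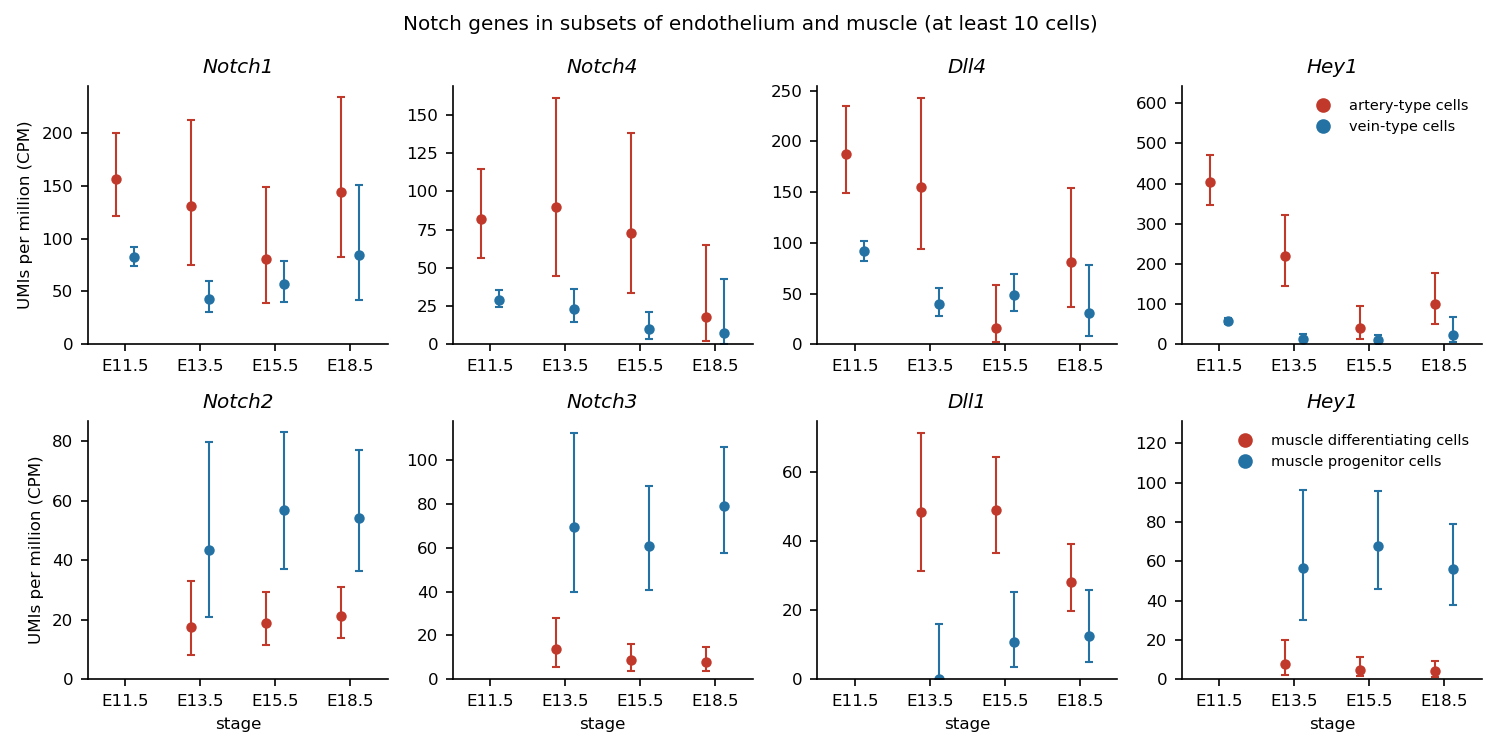
Level of members (vertical axis, CPM with exact 95% Poisson intervals) in artery-type and vein-type endothelial cells (upper row) and in differentiating and progenitor muscle cells (lower row) by stage, for subsets of at least 10 cells. Hey1 lies above in artery-type cells at each stage, and in muscle Notch2, Notch3 and Hey1 lie below in differentiating cells while Dll1 lies above.

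Within gates, the members called by size between stages were few. At E18.5 against E15.5 2 members were higher in endothelium, Jag1 and Hey1, and 0 lower (8.34% of genes higher and 7.58% lower), Hey1 by 3.19-fold relative to the median gene (1.66 to 6.14). At E18.5 against E11.5 3 were higher and 1 lower in endothelium (9.25% and 23.8%): Jag1 was 22.4-fold higher (12.03 to 41.8), Notch2 15.0-fold (5.30 to 39.8) and Dll1 4.60-fold (1.86 to 9.99), and Notch4 was lower by CPM alone, which leaves 3 higher and 0 lower relative to the median gene (14.7% and 10.4%). Notch2 and Dll1 rest on 8 UMIs each at E18.5. Markers of other cells were also higher in gated endothelium at E18.5 than at E11.5. The muscle list summed to 195.1 CPM with 6 of 8 found (Pax3 and Myf5 at 0) at E18.5, against 2.87 CPM with 3 of 8 at E11.5. The pericyte list summed to 119.8 CPM with 5 of 8 found (Higd1b, Myh11 and Art3 at 0) at E18.5, against 29.6 CPM with 7 of 8 at E11.5. Their part in these differences was not tested. In cartilage 0 members were higher and 5 lower by CPM at E13.5 than at E11.5 (9.71% and 30.3%). Relative to the median gene 1 was higher and 2 lower (17.6% and 11.2%): Notch2 was 2.56-fold higher (1.65 to 4.23), Hey1 was 3.83-fold lower (2.74 to 5.28), and Notch3 was lower as given above. Gated cartilage at E11.5 was the class of low marker level described above. With 4 markers required it held 37 cells in place of 172, against 1551 in place of 1711 at E13.5. These folds may thus compare unlike cells.

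In epidermis 0 members were higher and 3 lower by CPM at E13.5 than at E11.5 (7.15% and 22.9%). Relative to the median gene 1 was higher and 3 lower (12.9% and 6.68%). Notch2 was 2.65-fold higher (1.57 to 4.51), and the lower ones were Heyl, Hey1, which was 4.04-fold lower relative to the median gene (2.21 to 8.08), and Notch3, 2.34-fold lower (1.47 to 3.89). At E18.5 against E15.5 Notch1 alone was higher in epidermis and 0 members were lower (9.45% and 8.84%), with 147.5 CPM at E18.5 against 71.5 CPM at E15.5, a 2.29-fold difference (1.85 to 2.84). At E18.5 against E11.5 0 were higher and 3 lower (10.3% and 43.1%). Relative to the median gene, which was lower by 0.85 on the log2 scale there, 4 were higher and 3 lower (19.4% and 13.3%), with Notch1, Notch2, Jag1 and Jag2 higher.

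Of the 46 other genes of the pathway on the lists, 43 could be tested, and their median log2 fold change lay between -0.19 in muscle and 0.10 in pericytes. The alternative runs, among them the run without a filter on low counts, were read for the 10 members alone. How far the large folds of the other genes depend on sums with few UMIs was not tested. In endothelium 5 were higher and 2 lower, where 9.65% and 6.27% of all genes were, a share close to that background. They were led by the glycosyltransferase Mfng (log2 fold change 6.52 ± 0.44, adjusted p = 2.25e-07), whose product modifies the receptors. The ubiquitin ligase gene Dtx3l (2.25) and Nrarp (1.62) came next, and Numbl (-1.36) and Rfng (-1.05) were lower. In pericytes 2 were higher, Nrarp (3.79 ± 0.48, adjusted p = 0.000338) and Dtx3 (1.90), and 0 were lower (5.19% and 0.691% of all genes). In muscle 5 were higher and 3 lower (5.65% and 10.6% of all genes), led by the atypical ligand gene Dner (5.97 ± 0.47, adjusted p = 1.35e-06), the ligand-sorting ubiquitin ligase gene Neurl1a (3.47) and Dtx4 (3.004). Maml2 (-3.60), which encodes a coactivator of the nuclear complex, Nrarp (-2.42) and Dtx3 (-1.43) were lower in muscle.

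In cartilage 2 were higher, the non-canonical ligand gene Dlk1 (2.46 ± 0.58, adjusted p = 0.00602) and Maml2 (1.09), and 6 were lower, led by Nrarp (-4.16 ± 0.39, adjusted p = 5.27e-06), Dtx4 (-2.97) and Dner (-2.63), where 12.2% and 6.24% of all genes were called. In epidermis 5 were higher and 3 lower, with Dlk2 (5.30 ± 0.53, adjusted p = 6.44e-06), the gamma-secretase subunit gene Aph1c (1.60) and Maml3 (1.36) higher, and Dlk1 (-3.75), Mfng (-2.78) and Psen2 (-1.27) lower (9.44% and 7.23% of all genes). Nrarp was called in all 5 gates, higher in pericytes, endothelium and epidermis (1.17 ± 0.31, adjusted p = 0.0132) and lower in muscle and cartilage, and was singled out in epidermis after its values were seen. Hes5, Hey2 and Neurl1b had too few UMIs to be tested.

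Over the 16 sums, the genes whose log2(CPM + 10) went most closely with each member differed by member. Pearson correlations are given as a description, since sums of a gate share cells of like type and sums of a library share depth. Dll4 went with Ushbp1 (0.990), Cyyr1 (0.990) and Gimap6 (0.989), and Notch4 with Aplnr (0.970), Abhd17a (0.970) and St8sia4 (0.966), Aplnr being a vein marker here. Notch3 went with Pde5a (0.925), Bdnf (0.903) and Galnt16 (0.900), and Heyl with Galnt16 (0.951), Tagln (0.937) and Pde5a (0.911), so that 2 of the 3 genes are shared. Notch1 went with Itm2b (0.929), Jup (0.896) and Diap1 (0.887), and Notch2 with Cd63 (0.912), Gm27803 (0.867) and Rln1 (0.848). Dll1 went with Plxna2 (0.938), Fndc5 (0.848) and Btf3 (0.839), and Jag1 with Slc7a11 (0.934), Htra1 (0.884) and Cdk2ap2 (0.878). Jag2 went with Sema3f (0.928), Itga3 (0.909) and Hras (0.898), and Hey1 with Map7d1 (0.930), Flii (0.923) and Prkar1a (0.921).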

How the data were processed

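The authors deposited UMI counts per gene and cell barcode for each library, made with Cell Ranger on mm10, per the submitters' processing notes, which also name Seurat 2.3.4. The Cell Ranger version is not stated there. Globin genes were left out of totals, and levels are UMIs per 1000000. The genes and lists were chosen with earlier results of these data known. The 10 members are always named, of the other pathway genes up to 3 called per direction and gate, and for each member the 3 most correlated genes. Cells meeting several gates without a lead of 2 markers were left out, and no doublet caller was run. Sums were tested with edgeR 4.0.16 (quasi-likelihood, TMM, at least 10 UMIs in 3 sums, library as block, since the gates of a library come from 1 cell pool), which was tested on simulated data. With this block, p-values measure how differences between gates or subsets varied over libraries that differ in stage, and not the spread between libraries. The gates share 1 estimate of that variation, to which the 1 pericyte sum adds no spread of its own. Intervals are exact (Poisson, Clopper-Pearson, conditional binomial, 95%) and cover counting error only. Alternatives were DESeq2 1.42.0, other scaling, no filter, no block, each library left out, stricter gates, all barcodes, thinning to 4000 UMIs, and subsets added after the data were seen. Python 3.11.15 and R 4.3.3 were used.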

Additional observations from a re-analysis of the deposited data

How the results depend on the processing

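Of the 27 calls of members between gates, 16 held in every alternative run; the calls that did not are named beside their values. Counts of called members were 7, 3, 4, 7 and 6 in endothelium, pericytes, muscle, cartilage and epidermis, and leaving out each library gave 5 to 8, 2 to 4, 3 to 5, 5 to 7 and 4 to 6. Runs without E18.5 had no pericyte sum, so the other gates were then compared with fewer gates. Without the replicate block, muscle had 2 called members. Artery-type against vein-type cells gave 2 called members, 0 without the block and 1 to 3 with a library left out. Differentiating against progenitor muscle cells gave 2 from sums of 20 cells, 1 without the block and 5 without a filter on low counts; sums of 10 cells gave 4, and 1 to 2 with a library left out, when Hey1 and Dll1 fell below the filter in each case, Notch3 did so without E18.5, and Notch2 lost its call without E15.5 (adjusted p = 0.087). Between E18.5 and E11.5, 3 members were called in cartilage and 1 with 4 markers per gate, and 3 in epidermis and 7 relative to the median gene. In cartilage the log2 ratio of Notch3 for E18.5 over E15.5 was -0.41 when cells with a second gate were left out, the reverse of the main value, on few UMIs; the cause was not tested. Thinning cells to 4000 UMIs, with shallower cells left out, moved 113 shares of cells with a UMI beyond their interval and left 47 within it. Both the depth and the set of cells differed in that run. Depth limits Notch4, Jag1 and Jag2 in late endothelium, where 49 cells remained at E18.5.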
